A study of Arabidopsis thaliana with 11 samples.

Results

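Polycomb group genes were followed through the developing Arabidopsis thaliana seed, as reads that could be assigned to the Columbia (Col) or the Landsberg (Ler) allele in crosses between both strains. The 10 genes were chosen by name, whatever their values, from the 28523 genes of the deposited tables: MEA, CLF and SWN, FIS2, EMF2 and VRN2, FIE, MSI1, LHP1 and RING1A. 7 of the 10 had allele reads. MEA (AT1G02580), FIE (AT3G20740) and MSI1 (AT5G58230) had 0 in all 11 libraries, as had 10609 genes (37.2% of the tables), so nothing is reported on their level or parental origin.

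Polycomb repressive complex 2 (PRC2) places the trimethyl mark on lysine of histone H3 that keeps developmental genes silent, and it combines a catalytic subunit, a zinc-finger subunit and a pair of WD-repeat subunits. In the central cell and endosperm of Arabidopsis, the nutritive tissue that carries 2 maternal genome copies for each paternal one, the complex is built from MEA, FIS2, FIE and MSI1. Its loss from the mother leads to endosperm overgrowth and seed abortion, and MEA and FIS2 are themselves known as imprinted genes expressed from the maternal allele, after demethylation by the DNA glycosylase DME. CLF, SWN, EMF2 and VRN2 serve related complexes in the rest of the plant.

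RNA was taken from seeds dissected 7 to 9 days after pollination. Wild-type libraries were 3 of pure endosperm, 2 of full endosperm and 3 of embryo, the words pure and full being the submitters' and not defined by them. Pure endosperm and embryo each had 2 libraries from Col mothers and Ler fathers (replicates 1 and 2, replicate 1 with LCM in its title) and 1 from Ler mothers and Col fathers (replicate 3), and full endosperm had 1 of each cross (replicates 1 and 2). 3 further pure endosperm crosses gave 1 library each. The first had mothers carrying dme-2 (Col-gl background) and wild-type Ler fathers. The second had mothers carrying fie-1 (Ler background) and wild-type Col fathers. The third had wild-type Ler mothers and fathers carrying met1-6 (Col-gl background), which lack the maintenance DNA methyltransferase MET1. The dme-2 and fie-1 plants were heterozygous and the met1-6 plants homozygous, and whether the seeds of the first 2 crosses were sorted by phenotype is not given in the sources used here. The labels tie no replicate to a plant of its own, so the p-values reflect library-to-library spread, which may be technical, and with 1 library a mutant cross is assumed to vary like wild type.

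The level of a gene is given in CPM, its allele reads scaled to a fixed library total with edgeR's TMM factors. The libraries held from 358142 to 4828301 allele reads, the fewest in pure endosperm replicate 1. Of the genes mutated, FIE had no read anywhere and MET1 had at most 12 in a library, so neither label could be checked. DME was at 49.0 CPM in the dme library, against 144 to 210 in pure endosperm, and it was at 39.2 in the fie library. Markers of the seed coat, a purely maternal tissue, differed between libraries. 10 of 14 listed seed coat genes had reads, and their summed level was 54.9 to 657 CPM in embryo, 479 to 5073 in pure endosperm, 9393 to 15019 in full endosperm, 13392 in met1, 19566 in fie and 37294 in dme. TT12, TT2, MUM4 and AHA10 were at 0 throughout. 5 of 6 endosperm markers had reads, IKU2 being at 0. Their sum was 13991 to 197443 CPM in pure endosperm but 551 in dme and 238 in fie, with 8463 in embryo replicate 3. EPR1 made up most of each pure endosperm sum, and ZOU and ALE1 were lower in both mutants as well. MINI3 and AGL62 went the other way in both. They were at 46.5 and 98.9 CPM in dme, against 0 and 1 reads in the pure endosperm libraries together. 13 of 16 embryo markers had reads, CUC1, CUC3 and MP being at 0, and their sum was 1021 to 1418 CPM in embryo and 97.7 to 238 in pure endosperm. Maternal reads made up 88.9% of all allele reads in dme and 77.3% in fie, against 66.9% to 69.5% in pure endosperm.

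SWN (AT4G02020), a catalytic subunit of PRC2, was the member with the clearest tissue difference. It stood at 10.4, 18.2 and 19.9 CPM in the embryo libraries and at 30.2, 61.3 and 74.6 in pure endosperm (replicates 1 to 3). The groups did not overlap, and how many of all genes were so separated was not counted. These levels are compared only within a gene, since the number of allele reads also depends on the gene's length and on how many sites differ between Col and Ler. edgeR's quasi-likelihood test gave 3.38-fold more SWN reads in pure endosperm than in embryo (log2 1.76 ± 0.40 SE, Benjamini-Hochberg adjusted p = 0.0017). SWN was the 1 member called of 7 tested, against 23.5% of 12595 genes called in either direction and 13.7% called higher in pure endosperm. The call held in all 13 alternatives run, with log2 values from 1.24 to 1.83 and adjusted p up to 0.0412.

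SWN was highest in full endosperm, at 67.1 and 68.9 CPM (68.0 ± 1.23 SD, n = 2), then in pure endosperm (55.4 ± 22.7 SD, n = 3). The fie library was at 42.4, the met1 library at 41.1 and the dme library at 36.4. They lay above pure endosperm replicate 1 (30.2, on 13 reads) and below replicates 2 (61.3, Col mothers) and 3 (74.6, Ler mothers). None of these SWN differences from pure endosperm was called. Embryo was lowest (16.1 ± 5.09 SD, n = 3). The full and pure endosperm means differed by less than the spread of the pure endosperm libraries. The seed coat markers were also higher in pure endosperm than in embryo. Their reads in pure endosperm were 96.6% to 99.6% maternal, and SWN reads there were 61.5% to 65.1% maternal. The part of the seed coat in the SWN difference was not tested. In bulk samples, more cells of a type and more RNA per cell cannot be told apart.

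CLF (AT2G23380), the catalytic subunit best known from leaves and flowers, had its highest values in embryo. It was at 24.8, 17.8 and 21.1 CPM in embryo and at 14.0, 9.72 and 9.45 in pure endosperm. Full endosperm was at 13.4 and 12.4. CLF was thus higher in all embryo libraries than in all wild-type endosperm libraries, and how many of all genes were so was not counted. Its pure endosperm against embryo difference was log2 -0.95 ± 0.46 SE and did not pass the test (edgeR's quasi-likelihood test, adjusted p = 0.146). With library totals in place of TMM factors, a setting added after the data were seen, the value was -1.46 and passed (edgeR, adjusted p = 0.0249). The dme library was at 20.3, the met1 library at 15.2 and the fie library at 4.59, on 20 reads. CLF overlaps the neighbouring genes AT2G23370 and AT2G23390 in the TAIR10.1 annotation, and use of strand is not given in the sources used here, so its reads are uncertain in part.

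**Figure D1:**
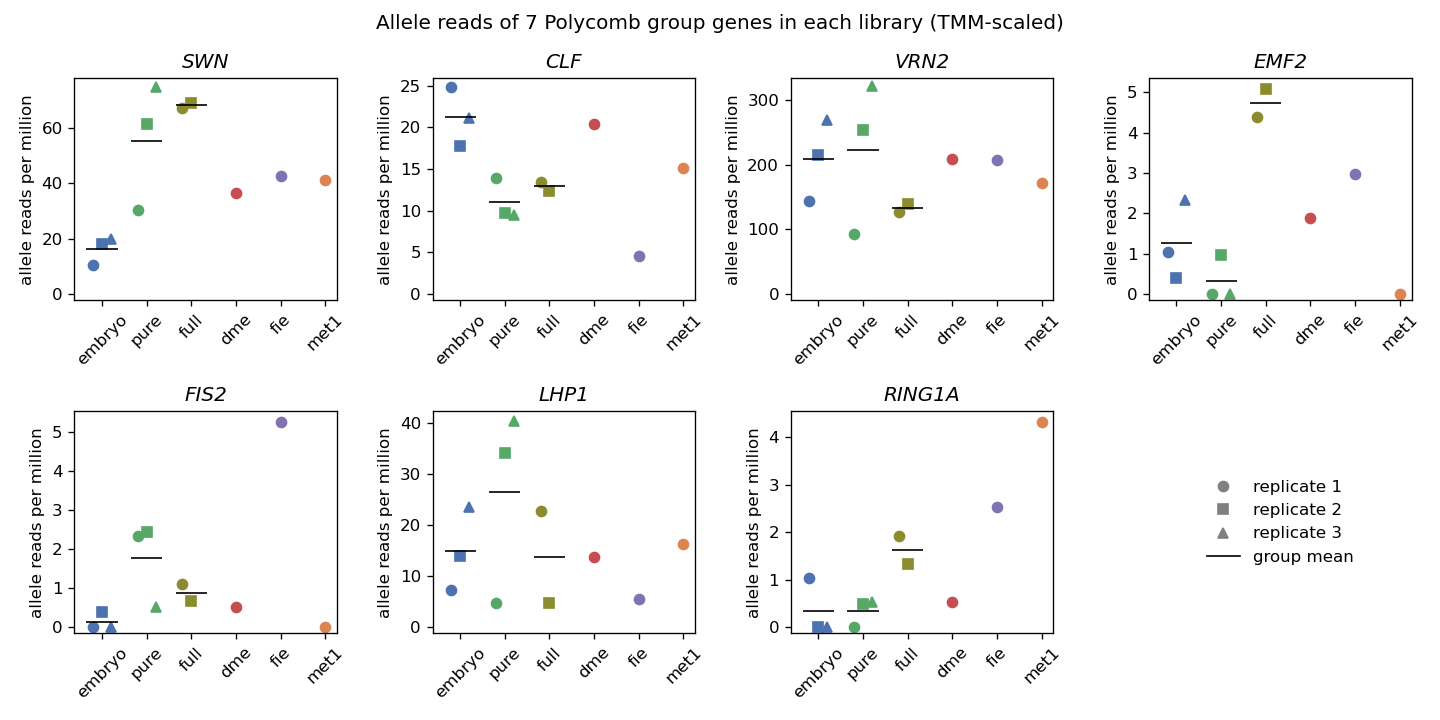
Level in CPM (vertical axis, each panel from 0 on its own scale) of the 7 members with reads, by library group (horizontal axis); each point is 1 library and black lines are group means. SWN lies at 10.4 to 19.9 in embryo and 30.2 to 74.6 in pure endosperm, while CLF is highest in embryo.

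Read against each other within a library, where depth and scaling cancel, SWN and CLF were in a different balance in the embryo. SWN made up 29.4%, 50.5% and 48.6% of SWN and CLF reads in the embryo libraries. It made up 68.4%, 86.3% and 88.8% in pure endosperm and 83.3% and 84.7% in full endosperm. All wild-type endosperm libraries were therefore above all embryo libraries, although the exact 95% interval of pure endosperm replicate 1, on 19 reads, ran from 43.4% to 87.4%. The share was 64.1% in dme, the lowest of the larger endosperm libraries (58.7% to 69.3%, 329 reads), 73.1% in met1 and 90.2% in fie. How many other pairs of genes were so separated was not counted. The SWN share was looked at after the values of both genes were seen and carries no test. It is no ratio of transcripts, since the genes differ in length and in informative sites.

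**Figure D2:**
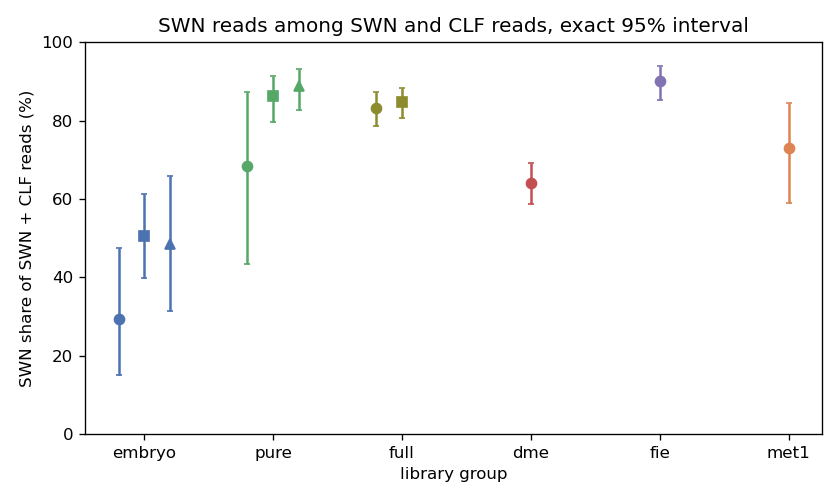
Share of SWN reads among SWN and CLF reads (vertical axis, %) in each library (horizontal axis, by group), with exact 95% binomial intervals that cover counting error only. Embryo libraries lie between 29.4% and 50.5% and wild-type endosperm libraries between 68.4% and 88.8%.

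Among the zinc-finger subunits, VRN2 (AT4G16845), known for keeping the flowering repressor FLC silent after cold, had by far the most reads of any member, 5453 over the 11 libraries. It was at 144, 214 and 269 CPM in embryo, at 93.0, 254 and 322 in pure endosperm and at 127 and 138 in full endosperm. The mutant libraries were at 209 in dme, 208 in fie and 171 in met1. The pure endosperm libraries spanned the levels of all other libraries. The pure endosperm against embryo difference of VRN2 was log2 -0.02 ± 0.34 SE (95% interval -0.68 to 0.65; edgeR's quasi-likelihood test, adjusted p = 1), with a sign that turned in 4 alternatives. Full against pure endosperm gave log2 -0.98 ± 0.39 SE, which did not pass (edgeR, adjusted p = 0.109). It passed when pure endosperm replicate 1 was left out (log2 -1.11, edgeR adjusted p = 0.0192), when embryo replicate 1 was left out (-1.02, 0.0324) and without both of these LCM-titled libraries (-1.07, 0.027).

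EMF2 (AT5G51230), which acts with CLF and SWN in repressing flowering, was sparse, with 69 reads in all. It had 16 and 23 reads in full endosperm, 4 in the 3 embryo libraries together and 2 in the 3 pure endosperm libraries together. By pooled reads it was 10.5-fold higher in full than in pure endosperm (95% counting interval 2.72 to 89.7), and the fit across libraries did not call it (edgeR's quasi-likelihood test, adjusted p = 0.0691). The dme library had 11 EMF2 reads, the fie library 13 and the met1 library 0.

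FIS2 (AT2G35670), the zinc-finger subunit of the endosperm complex, had 41 reads, and nearly all of them carried the maternal allele. In the 5 wild-type endosperm libraries 14 of 14 FIS2 reads were maternal (exact 95% interval 76.8% to 100%), 10 from Col mothers and 4 from Ler mothers. The expected share from genome copies is 66.7%. Single libraries had 1 to 5 reads, under the 10 that each cross needed for the test of parental bias, so this is a description of pooled reads. Seed coat markers, nearly all maternal, had reads in each of these libraries. The part of that maternal tissue in the FIS2 reads was not tested. The embryo libraries had 1 read, maternal, and the dme library 3, all maternal.

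The fie library held 23 FIS2 reads, more than the other 10 libraries together, of which 21 were maternal and 2 paternal (91.3%, exact 95% interval 72% to 98.9%). That was 5.27 CPM, against 2.33, 2.43 and 0.525 in pure endosperm. The difference was log2 2.60 ± 1.35 SE and did not pass (edgeR's quasi-likelihood test, adjusted p = 0.147). Seed coat markers were also higher in fie than in pure endosperm, and their part in the FIS2 reads was not tested. The met1 library had 0 FIS2 reads, where up to 3.25 CPM would be allowed by a count of 0 (3 reads). That count therefore does not tell its level from that of pure endosperm. FIS2 overlaps AT2G35680 in the TAIR10.1 annotation.

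LHP1 (AT5G17690), the chromodomain protein that binds the PRC2 mark, varied more within groups than between them. It was at 7.25, 13.8 and 23.4 CPM in embryo, at 4.65, 34.0 and 40.4 in pure endosperm and at 22.7 and 4.65 in full endosperm. The low pure endosperm library was replicate 1, with 2 LHP1 reads. The dme library was at 13.6, met1 at 16.2 and fie at 5.50. RING1A (AT5G44280), a ubiquitin ligase of PRC1-like complexes, had 34 reads: 13 in full endosperm, 11 in fie, 4 in met1, 3 in dme, 2 in pure endosperm and 1 in embryo. LHP1 overlaps AT5G17680 and RING1A overlaps AT5G44270 in the TAIR10.1 annotation.

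The full, dme, fie and met1 comparisons all use the same 3 pure endosperm libraries, so they are not independent of each other. Full against pure endosperm called 0 of 7 members (10.9% of genes called), with 3 at an unadjusted p under 0.05: EMF2, VRN2 and LHP1 (log2 -1.48 ± 0.61 SE; edgeR's quasi-likelihood test, adjusted p = 0.126). DESeq2 also called none of the 7 there. LHP1 passed without full endosperm replicate 1 (log2 -3.12, edgeR adjusted p = 0.00595) and with no filter on low counts (-1.51, 0.0442), and was at -0.44 (0.829) without full endosperm replicate 2. dme against pure endosperm called 0 of 7 (27% of genes called; 0 at an unadjusted p under 0.05, and 0 in DESeq2). CLF was at log2 1.07 ± 0.61 SE (edgeR, adjusted p = 0.205) and LHP1 at -1.56 ± 0.79 SE (0.153). With library totals as scaling CLF was at 1.86 and passed (edgeR, adjusted p = 0.0242).

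fie against pure endosperm called 1 of 7 members, against 29.8% of genes. LHP1 fell, by 2.47 ± 0.84 SE on the log2 scale (edgeR's quasi-likelihood test, adjusted p = 0.0319), the fie library being at 5.50 CPM and above pure endosperm replicate 1 (4.65), while pure endosperm replicates 2 and 3 were at 34.0 and 40.4. The call was lost without pure endosperm replicate 3 (log2 -1.61, adjusted p = 0.366), without embryo replicate 2 (0.0514), in DESeq2 (0.140), with library totals as scaling (0.0989) and without the replicate block (0.150). met1 against pure endosperm called 0 of 7 members (3.64% of genes called; 0 at an unadjusted p under 0.05, and 0 in DESeq2). RING1A, on 4 reads against 2, was 9.51-fold higher there by pooled reads (95% counting interval 1.36 to 105; edgeR, adjusted p = 0.307).

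**Figure D3:**
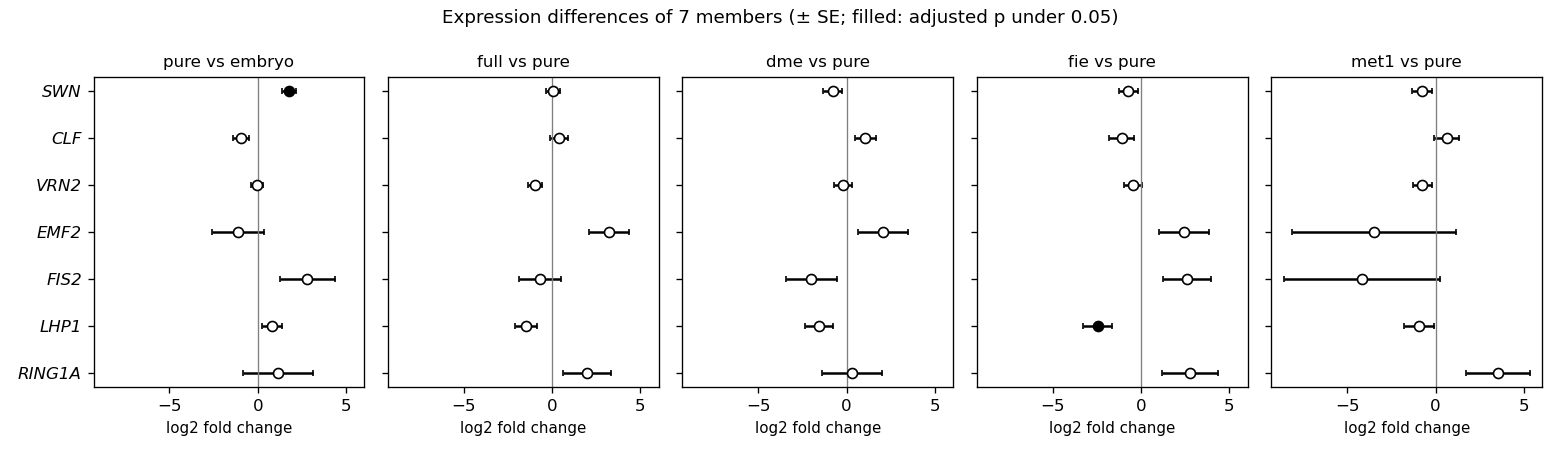
Fitted log2 fold changes (horizontal axis, ± SE) of 7 members in 5 comparisons of total allele reads; filled points have an adjusted p under 0.05 in edgeR's quasi-likelihood test. SWN passes in pure endosperm against embryo (1.76) and LHP1 in fie against pure endosperm (-2.47); values of FIS2, EMF2 and RING1A rest on few reads.

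Parental origin was tested against genome copies, a maternal share of 66.7% in endosperm and 50% in embryo, in 1 fit that separates the parent of origin from the Col or Ler identity of the allele. 4 members had the 10 reads in each cross that the test required in pure endosperm and embryo: SWN, CLF, VRN2 and LHP1. EMF2 was added in full endosperm. No member was called in wild type, 0 of 4 in pure endosperm (5.02% of genes called), 0 of 5 in full endosperm (19.3%) and 0 of 4 in embryo (0.973%) by edgeR's quasi-likelihood test. At an unadjusted p under 0.05 there were 1, 1 and 0 members, and DESeq2 also called none in these groups. The difference between pure endosperm and embryo was called for 0 of 4 (1.58% of genes called; 0 at an unadjusted p under 0.05, and 0 in DESeq2).

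VRN2 gave the most precise shares. It was 56.1%, 49.0% and 47.8% maternal in embryo (51.0% ± 4.49 SD, n = 3) and 75.0%, 66.7% and 60.8% in pure endosperm (67.5% ± 7.11 SD, n = 3), both close to the share of genome copies. Relative to those copies the bias was log2 -0.01 ± 0.22 SE in embryo and -0.11 ± 0.22 SE in pure endosperm. In full endosperm VRN2 was 78.1% and 72.3% maternal, a log2 bias of 0.61 ± 0.24 SE that did not pass (edgeR's quasi-likelihood test, adjusted p = 0.0587). It passed without pure endosperm replicate 1 (edgeR, adjusted p = 0.0344), without replicate 3 (0.0396) and with a minimum of 30 reads (0.0497). The median over all 9174 genes tested in full endosperm was 0.48, and the seed coat markers were higher there than in pure endosperm. Their part in the VRN2 value was not tested.

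SWN was 61.5%, 65.1% and 62.0% maternal in pure endosperm (62.9% ± 1.93 SD, n = 3), slightly under the 66.7% of genome copies, with a log2 bias of -0.20 ± 0.32 SE (edgeR's quasi-likelihood test, adjusted p = 1). In embryo it was 50%, 21.7% and 47.1% maternal (39.6% ± 15.5 SD, n = 3). The low library, embryo replicate 2, had 10 maternal and 36 paternal SWN reads (exact 95% interval 10.9% to 36.4%), while the others had 10 and 17 reads in all. The embryo bias was log2 -0.75 ± 0.51 SE and did not pass (edgeR, adjusted p = 1).

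CLF leaned to the maternal allele in endosperm. It was 90.0% maternal in pure endosperm replicate 2 (18 of 20 reads) and 77.8% in replicate 3 (14 of 18), with 6 of 6 reads maternal in replicate 1. The log2 bias in pure endosperm was 1.64 ± 0.73 SE, with an unadjusted p of 0.0252, and did not pass after adjustment (edgeR's quasi-likelihood test, adjusted p = 0.337). Full endosperm was at 81.6% and 71.4% (log2 0.75 ± 0.52 SE, edgeR, adjusted p = 0.355), and embryo at 62.5%, 44.4% and 66.7% (57.9% ± 11.8 SD, n = 3).

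**Figure D4:**
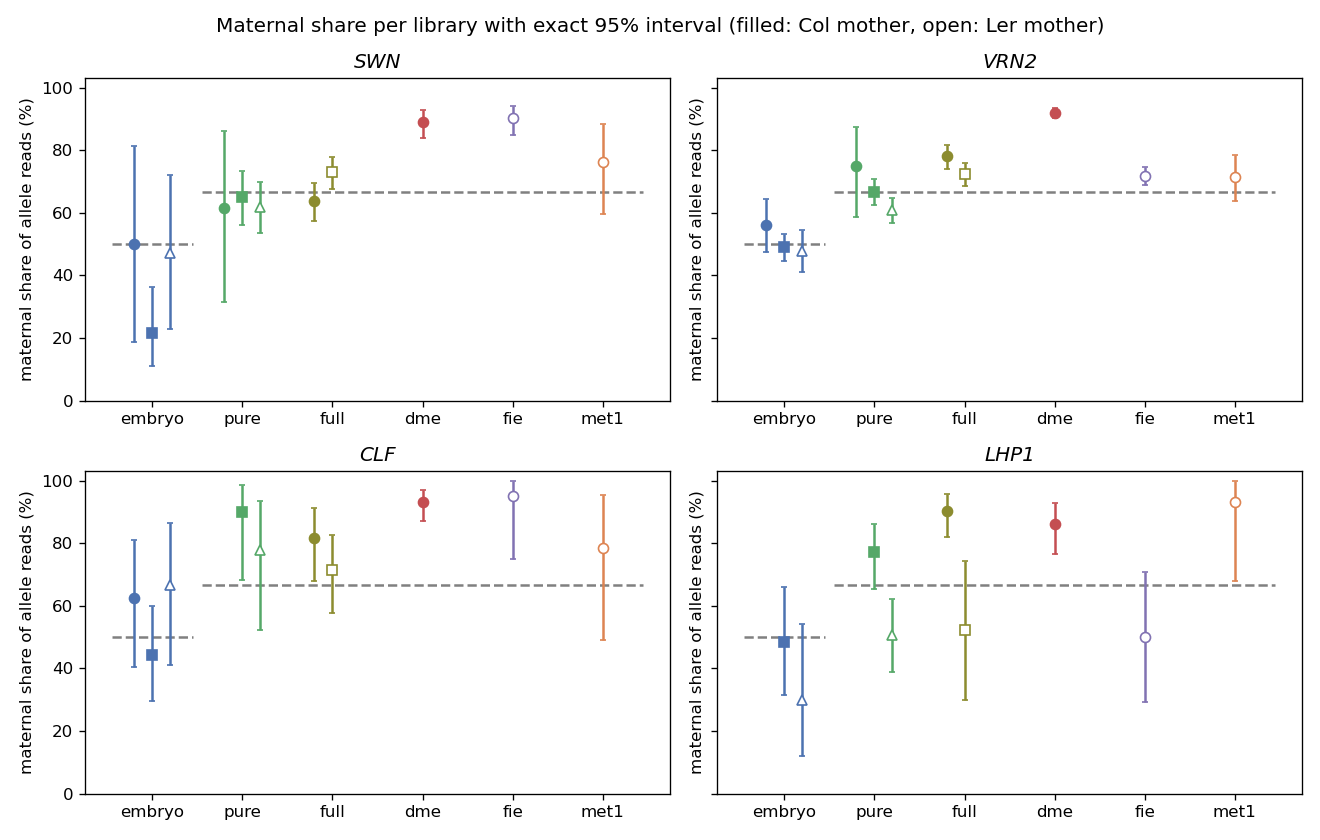
Maternal share of allele reads (vertical axis, %) of SWN, VRN2, CLF and LHP1 in each library with at least 10 reads (horizontal axis, by group), with exact 95% binomial intervals that cover counting error only; dashed lines mark the genome-copy shares of 50% in embryo and 66.7% in endosperm. VRN2 is at 92.0% in dme and 71.9% in fie, and SWN is at 89.1% and 90.3% in these libraries.

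In the dme library all 4 testable members were mostly maternal. VRN2 was 92.0% maternal (1115 of 1212 reads), SWN 89.1% (188 of 211), CLF 93.2% (110 of 118) and LHP1 86.1% (68 of 79). Against pure endosperm the bias of VRN2 was higher by log2 2.40 ± 0.44 SE (edgeR's quasi-likelihood test, adjusted p = 5.01e-07) and that of SWN by 2.35 ± 0.64 SE (0.00108). Thus 2 of 4 members were called, where 50.4% of genes were called, 49.5% as more maternal, and the median over 6980 genes was 1.71. With that median as the expected ratio neither was called, VRN2 at 0.69 (edgeR, adjusted p = 0.311) and SWN at 0.65 (0.560). The whole library was 88.9% maternal, and its seed coat marker reads were 99.8% maternal.

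In the fie library SWN had a higher maternal share than VRN2. SWN was 90.3% maternal (167 of 185 reads), against 62.0% in the pure endosperm library of the same cross, while VRN2 was 71.9% maternal (651 of 906), against 60.8%. The bias of SWN was higher than in pure endosperm by log2 2.28 ± 0.68 SE (edgeR's quasi-likelihood test, adjusted p = 0.00612) and that of VRN2 by 0.70 ± 0.43 SE (0.257). The difference between the genes was not tested. SWN was the 1 member called of 4, where 20.9% of genes were called, 20.2% as more maternal, and the median over 6728 genes was 0.91.

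The SWN call in fie was lost with that median as the expected ratio (log2 1.38, edgeR, adjusted p = 0.221), in DESeq2 (0.0816) and without pure endosperm replicate 3 (log2 1.72, edgeR adjusted p = 0.212), the wild-type library of the same cross. In fie 19 of 20 CLF reads and 12 of 24 LHP1 reads were maternal, and neither gene was called. The seed coat marker reads of the fie library were 99.8% maternal and their sum was above all pure endosperm libraries. Their part in the SWN and VRN2 values was not tested.

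In the met1 library VRN2 was 71.5% maternal, SWN 76.3% (29 of 38 reads), CLF 78.6% (11 of 14) and LHP1 93.3% (14 of 15). The test against pure endosperm called 0 of 4 members (4.48% of genes called; median 0.63 over 5717 genes; DESeq2 also called none). LHP1 was at log2 3.94 ± 1.47 SE, the 1 member at an unadjusted p under 0.05 (edgeR's quasi-likelihood test, adjusted p = 0.0987). Only 1 LHP1 read came from the met1-6 father, against 38 of 77 from the wild-type Col father in pure endosperm replicate 3.

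**Figure D5:**
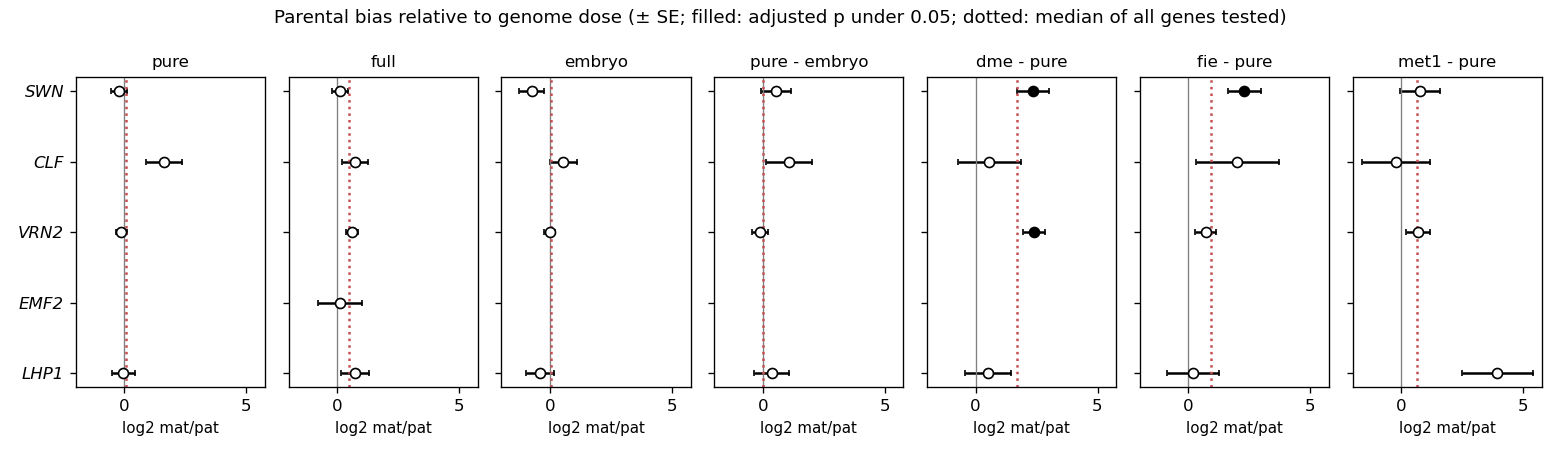
Parental bias of 5 members relative to genome copies (horizontal axis, log2 of maternal over paternal reads, ± SE) in 3 wild-type groups and 4 differences between groups; filled points have an adjusted p under 0.05 in edgeR's quasi-likelihood test and dotted lines are medians of all genes tested. SWN (2.35) and VRN2 (2.40) in dme minus pure endosperm lie above a median of 1.71, and SWN (2.28) in fie minus pure endosperm above 0.91.

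LHP1 was the member whose alleles differed by strain. In wild-type endosperm it was 77.1% and 90.4% Col with Col mothers (pure endosperm replicate 2 and full endosperm replicate 1), where 66.7% is the share of Col genome copies. With Ler mothers it was 49.4% and 47.6% Col (pure endosperm replicate 3 and full endosperm replicate 2), where 33.3% is that share. Both crosses thus had more Col reads than genome copies. After allowance for parent of origin the Col allele gave 2.21-fold more LHP1 reads than the Ler allele (log2 1.14 ± 0.36 SE, edgeR's quasi-likelihood test, adjusted p = 0.0107). This value rests on the wild-type endosperm libraries. The dme, fie and met1 libraries do not inform it, since each is 1 library with a parent term of its own. LHP1 was 86.1% Col in dme (Col mothers), and 50% in fie and 6.67% in met1 (Ler mothers).

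LHP1 was the 1 member called of 7 tested for strain in endosperm, where 18.1% of genes were called and 11.1% had more Col reads. The call was lost in DESeq2 (adjusted p = 0.157), without full endosperm replicate 1 (0.187) or 2 (0.181) and without pure endosperm replicate 3 (0.0616). FIS2 gave no usable estimate because nearly all its reads were maternal. In embryo LHP1 was at log2 0.82 ± 0.57 SE (edgeR, adjusted p = 0.387), and 0 of 4 members were called (16.1% of genes called; 0 at an unadjusted p under 0.05, and 0 in DESeq2). VRN2 showed little strain difference, log2 0.24 ± 0.16 SE in endosperm (95% interval -0.08 to 0.56) and 0.12 ± 0.22 SE in embryo (-0.32 to 0.56), and neither passed.

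Other genes of the Polycomb pathway were taken from 3 lists. Of 20 partners of the members, 11 could be tested for expression. In pure endosperm against embryo 3 rose and 0 fell (13.7% and 9.78% of all genes), with a median of 0.28, or -0.11 over 10 genes when sparse genes are left out or set at their bound, against 0.05 over all genes. VAL1, a B3-domain repressor that recruits Polycomb to seed maturation genes, rose by log2 1.64 ± 0.41 SE (edgeR's quasi-likelihood test, adjusted p = 0.004), and was called in 9 of 13 alternatives. TRB1, a telobox-binding protein that recruits PRC2, rose by 1.20 ± 0.35 SE (edgeR, adjusted p = 0.0123; 7 of 13), and EMF1, a plant-specific partner, by 0.97 ± 0.34 SE (0.0402; 1 of 13). Leaving out pure endosperm replicate 2 or 3, or embryo replicate 2, ended each of these calls. In full against pure endosperm 0 partners rose and 2 fell (6.21% and 4.74% of all genes), MSI3 (by pooled reads 35.3-fold, 95% counting interval 5.62 to 1468; edgeR, adjusted p = 0.00973) and VAL2 (log2 -1.88 ± 0.54 SE, 0.0237). The MSI3 call was lost without full endosperm replicate 1 (0.0996) or 2 (0.0519) and without pure endosperm replicate 3 (0.0666), and VAL2 was called in 6 of 13 alternatives.

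In dme against pure endosperm 0 of 11 partners rose and 3 fell (14.1% and 12.9% of all genes), with a median of -1.23 against 0.15 over all genes. VAL1 was at 665, 5749 and 6649 CPM in pure endosperm and at 552 in dme, a log2 change of -3.21 ± 0.70 SE (edgeR's quasi-likelihood test, adjusted p = 0.00106). Its relative VAL2 fell as well (log2 -3.17 ± 0.77 SE, edgeR, adjusted p = 0.00277) and so did TRB1 (-1.60 ± 0.55 SE, 0.0314), a call held in 7 of 13 alternatives. In fie 1 rose and 2 fell (15.8% and 14% of all genes), with a median of -0.95 against 0.21 over all genes: VAL1 fell (log2 -3.56 ± 0.71 SE, edgeR, adjusted p = 0.000402) and so did VAL2 (-2.89 ± 0.78 SE, 0.00637). AT3G23060, on 32 reads against 1, was 32.2-fold higher by pooled reads (95% counting interval 5.38 to 1312; edgeR, adjusted p = 0.045). VAL1 stayed called in 12 of 13 alternatives in each mutant, the exception being the fit without the replicate block (edgeR, adjusted p = 0.135 in dme and 0.101 in fie). VAL2 lost its call in dme without pure endosperm replicate 2 (0.0624), and AT3G23060 was called in fie in 6 of 13 alternatives, its adjusted p being 1 without pure endosperm replicate 3. Seed coat markers, and endosperm markers in both directions, differed between these libraries as given above, and their part was not tested.

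Of 10 Polycomb antagonists, trithorax group proteins, demethylases and remodellers, 8 could be tested. edgeR's quasi-likelihood test and DESeq2 called 0 of them in pure endosperm against embryo, full against pure endosperm, dme and met1. Of all genes, edgeR called 23.5%, 10.9%, 27% and 3.64% in these comparisons. Among the 8, there were 0, 2, 1 and 1 at an unadjusted p under 0.05. In fie 1 fell, where 14% of all genes did. It was AT5G46910, with 2 reads in fie and 39 in pure endosperm (19.4-fold by pooled reads, 95% counting interval 5.01 to 166; edgeR, adjusted p = 0.0087, and 0.0602 without pure endosperm replicate 3). The medians of the 8 were 0.20 in dme and 0.10 in fie, near those of all genes. In met1 the same test and DESeq2 called 0 of the 11 partners, 8 antagonists and 14 seed targets tested, with 2, 1 and 2 at an unadjusted p under 0.05. With only 3.64% of all genes called there, these zeros say little about the listed genes.

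Of 18 known or candidate seed targets of Polycomb, 14 could be tested. 8 rose and 2 fell in dme and 7 rose and 2 fell in fie, set against the shares of all genes given above. DESeq2 called 6 of the 14 in dme and 5 in fie. The list was chosen with earlier results of these data known. Some of its genes, PHE2 and AGL62 among them, with few or no reads elsewhere, met the filter on low counts through the dme and fie libraries. The counts, medians and p-values of this list are therefore a description. The list's median was 3.28 in dme (4.15 over 13 genes with sparse genes left out or at their bound) and 1.82 in fie (2.27 over 13), against 0.15 and 0.21 over all genes. PHE2 and AGL62, type I MADS genes of the early endosperm, had 2 and 1 reads in the 3 pure endosperm libraries together. PHE2 had 958 reads in dme and 1815 in fie, though its reads are uncertain, since it has a near-identical neighbour, PHE1, which had 0 reads. AGL62 had 574 reads in dme, 434-fold more by pooled reads (95% counting interval 77.7 to 17190), and 360 in fie, 362-fold more (64.6 to 14357). edgeR's quasi-likelihood test called both genes in dme and fie, the libraries through which they met the filter, so these calls lend no support. Those of PHE2 were lost in DESeq2, in dme without pure endosperm replicate 2 and in fie without replicate 3.

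YUC10, an auxin synthesis enzyme, rose in dme by 4.29 ± 0.61 SE on the log2 scale (edgeR's quasi-likelihood test, adjusted p = 1.39e-05), from 0, 9.72 and 22.1 CPM in pure endosperm to 185. SUVH7, a relative of histone methyltransferases, rose in fie by 4.56 ± 0.80 SE (edgeR, adjusted p = 0.000137), a call lost without pure endosperm replicate 3 (0.592). AGL36 and AT4G36590, both type I MADS genes with 0 reads in pure endosperm, were at least 19.9-fold and 28.0-fold higher in dme and at least 9.73-fold and 19.8-fold higher in fie, against a floor of 3 reads over the group. The genes that fell were FUS3 and ABI3, B3-domain regulators of seed maturation. FUS3 was at 60.5, 56.4 and 52.0 CPM in pure endosperm, 1.55 in dme and 0.459 in fie (edgeR, adjusted p = 2.49e-05 and 5.91e-06). ABI3 was at 27.9, 151 and 203 in pure endosperm, 24.8 in dme and 10.5 in fie (0.00334 and 8.42e-05), and its dme value lay close to that of pure endosperm replicate 1. The dme call of ABI3 was lost without pure endosperm replicate 2 (0.0615) and without the replicate block (0.105).

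In pure endosperm against embryo 4 seed targets rose and 1 fell, where 13.7% of all genes rose and 9.78% fell, and DESeq2 called 4 of the 14. YUC10 and SUVH7, with 0 reads in embryo, were at least 20.5-fold and 6.94-fold higher (edgeR's quasi-likelihood test, adjusted p = 3.78e-05 and 0.000995). AG, a floral organ identity gene, had 14 reads against 1 (edgeR, adjusted p = 0.035; called in 5 of 13 alternatives), and ABI3 fell by 1.58 ± 0.38 SE on the log2 scale (0.00301), a call lost without the replicate block (0.15). In full against pure endosperm 1 rose, where 6.21% of all genes did. It was AG, by 2.31 ± 0.67 SE (edgeR, adjusted p = 0.0263), called in 8 of 13 alternatives. The call was lost in DESeq2 (0.106), without the replicate block (0.0785), without embryo replicate 2 (0.0667), without pure endosperm replicate 3 (log2 1.25, 0.58) and without full endosperm replicate 2 (1.16, 0.611).

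DME, which activates the maternal alleles of MEA and FIS2, fell by 1.91 ± 0.58 SE on the log2 scale in dme (edgeR's quasi-likelihood test, adjusted p = 0.0154) and fell by 2.45 ± 0.59 SE in fie (0.0026). The dme call was lost without pure endosperm replicate 2 (0.0557), without embryo replicate 2 (0.0577), with library totals as scaling (0.140) and without the replicate block (0.0569), while the fie call held in all 13 alternatives. In parental bias 2 of the 4 seed targets tested were paternal in pure endosperm: HDG3, a homeobox gene (log2 -2.18 ± 0.31 SE, edgeR, adjusted p = 1.94e-09), and YUC10 (-2.88 ± 0.56 SE, 1.17e-05). Of all genes, 0.723% were called paternal there, but the list was chosen with earlier results of these data known, so this is a description. Both calls were lost in DESeq2 (0.159 for each) and without pure endosperm replicate 3 (0.985 and 0.386). That of HDG3 was called in 8 of 13 alternatives, being lost also without full endosperm replicate 1 (0.11) or 2 (0.174) and when the median over all genes was the expected ratio (0.449). In full endosperm, where 18.8% of genes were called maternal and 0.491% paternal, YUC10 was paternal (-3.12 ± 0.36 SE, edgeR, adjusted p = 5.7e-16), AG maternal (4.35 ± 0.76 SE, 1.98e-07), MSI5, a relative of MSI1, maternal (0.98 ± 0.37 SE, 0.0429) and SDG2, a trithorax-type methyltransferase, maternal (0.60 ± 0.20 SE, 0.0209). The AG and MSI5 calls were lost in DESeq2 (0.406 and 0.247), and those of MSI5 and SDG2 when the median over all genes was the expected ratio (0.485 and 0.824). MSI5 was called in 6 of 13 alternatives. The 4 calls came from 4 seed targets, 9 partners and 7 antagonists tested. Leaving out 1 of the 2 full endosperm libraries ended each of these 4 calls but that of YUC10, which was lost without replicate 1 (0.332) and held without replicate 2. Of the listed genes, TRB1 had more Col than Ler reads in endosperm (log2 0.61 ± 0.16 SE, edgeR, adjusted p = 0.00123) and in embryo (0.75 ± 0.26 SE, 0.03), and YUC10 (1.23 ± 0.31 SE, 0.000947) and HDG3 (1.10 ± 0.30 SE, 0.0026) did in endosperm. These calls held in 11 of 12 alternatives for TRB1 in endosperm (0.268 without pure endosperm replicate 3) and in 8 of 11 for TRB1 in embryo (up to 0.414, without embryo replicate 2). YUC10 held in 9 of 12 (up to 0.245, in DESeq2) and HDG3 in 6 of 12. HDG3 was at log2 0.86 in DESeq2 (0.606), at 0.44 without pure endosperm replicate 1 (0.397) and at 0.28 without replicate 3 (1), and it was lost without full endosperm replicate 1 (0.323) or 2 (0.372).

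The genes whose levels followed the members most closely were sought among 6816 genes with a mean of at least 10 CPM, by Pearson's r of log2 levels over the 11 libraries, as a description. For SWN these were AT5G17910 (r = 0.977), MUR3 (0.965) and AT3G62900 (0.963). For VRN2 they were ESP1 (0.935), TIP1 (0.929) and VIP4 (0.908). The best matches were weaker for LHP1, with ATSRL1 and AT4G14520 (both 0.889) and AT3G07090 (0.880), and for CLF, with WAVE5 (0.853), MUB2 (0.843) and AT4G09500 (0.822). Among the members, VRN2 and LHP1 had r = 0.69 and SWN and CLF r = -0.63. All these values share the depth and dissection of the same 11 libraries.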

How the data were processed

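The deposited tables hold, per library and gene, counts of reads assigned to the Col allele and to the Ler allele. The submitters' processing notes name Bowtie as a tool. The sources used here give no version, genome build or use of strand. The authors' whole-number counts were used as deposited, after an exclamation mark was trimmed from 1 gene ID. Maternal and paternal counts follow from the cross.

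Expression was tested on summed allele counts with edgeR's quasi-likelihood test (edgeR 4.0.16, limma 3.58.1, R 4.3.3) in 1 fit of 11 libraries, with TMM scaling (factors 0.67 in pure endosperm replicate 3 to 1.59 in embryo replicate 1), filterByExpr and the kind of title as block (LCM-titled Col mothers, other Col mothers, Ler mothers). Parental bias was tested on maternal and paternal counts, with a term per library, an allele term per tissue, a parent term per group and the genome doses as offsets. Genes needed 10 allele reads in each cross direction of each group compared, or of all endosperm pooled for the allele term. A call is a Benjamini-Hochberg adjusted p under 0.05 over all genes tested, and SE is the log2 value divided by the square root of F. Replicate numbers follow accession order and pair no samples. TMM-scaled CPM was chosen for display after the data were seen. Depth of 358142 to 4828301 reads makes 3 reads, the limit a count of 0 allows, worth 0.517 to 6.98 CPM. Intervals and floors cover counting error only, since reads carry no molecular identifiers. EPR1 took 0.000494% to 20.7% of a library's reads.

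Alternatives were DESeq2 1.42.0 (given the offsets as normalization factors for parental bias), minima of 30 and 1 read, the median ratio as the expected ratio, no filter, no block, omission of the LCM-titled libraries or of 1 library, and library totals as scaling, which was added after the data were seen. Both fits were tested on simulated data. Tables and figures used Python 3.11.15, numpy 2.4.6, pandas 2.3.3 and scipy 1.17.1. The text names all 10 members, up to 3 called genes of smallest p per list and direction, and the 3 genes most alike to each member with a mean of at least 10 CPM. Members, lists and tests were chosen with earlier results of these data known.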

Additional observations from a re-analysis of the deposited data

Results flagged for a closer look

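The maternal bias of 9 named genes was higher in the dme library than in pure endosperm by a test of the difference itself (edgeR's quasi-likelihood test over 6980 genes, of which 50.4% were called, with a median of 1.71). Among the members these were SWN, by log2 2.35, and VRN2, by 2.40. The test called 2 of 4 members, 6 of 9 partners, 3 of 6 antagonists, 0 of 3 seed targets and DME, the only regulator tested. The 3 partners of smallest p are named. They were MSI5, a WD-repeat relative of MSI1, by 2.00, MSI2, another such relative, by 1.58, and VEL1, a plant homeodomain protein, by 2.33. Among the antagonists they were PKL, a chromatin remodeller, by 2.31, SDG2, a trithorax-type methyltransferase, by 1.32, and ELF6, a histone demethylase, by 2.47. DME itself differed by 1.51. With the median as the expected ratio all 9 calls were lost. DESeq2 did not call MSI5, MSI2, VEL1 or ELF6. ELF6 was called in 7 of 12 alternatives, being lost also without full endosperm replicate 1 or 2 and without pure endosperm replicate 3, and MSI2 in 10 of 13, being lost also without pure endosperm replicate 2 (log2 1.19).

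In the fie library the bias was higher than in pure endosperm for 6 named genes, where 20.9% of 6728 genes were called and the median was 0.91. They were SWN by log2 2.28, VEL1 by 3.60, TRB1, a telobox-binding protein, by 1.19, YUC10, an auxin synthesis enzyme, by 3.03, HDG3, a homeobox gene, by 2.10, and DME by 1.89. The test called 1 of 4 members, 2 of 9 partners, 0 of 5 antagonists, 2 of 3 seed targets and DME, the only regulator tested. With the median as the expected ratio all 6 calls were lost, and leaving out pure endosperm replicate 3 ended all but that of VEL1. DESeq2 did not call SWN, TRB1, YUC10 or HDG3. TRB1 was called in 7 of 13 alternatives and HDG3 in 8 of 13. Both mutants were single libraries, both comparisons use the same 3 pure endosperm libraries, and seed coat markers were higher in both. The part of those markers in these values was not tested.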

How the results depend on the processing

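Of 896 values of members under alternatives, 838 kept their direction and their side of the threshold, 10 passed newly, 14 no longer passed and 34 changed sign. Of 650 values of other named genes 510 kept both, 137 no longer passed and 3 changed sign. The causes were not tested. Replicate numbers pair no samples. No value could be had for the embryo terms without embryo replicate 3, which leaves 1 cross direction. Depth limits FIS2, EMF2 and RING1A, and one library per mutant limits all mutant values.

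For all genes called in parental bias, DESeq2 gave 140 against 368 in pure endosperm, 697 against 1773 in full endosperm, 16 against 53 in embryo, 21 against 81 for pure endosperm minus embryo, 731 against 1406 in fie and 63 against 256 in met1. For the strain of the allele it gave 1129 against 2194 in endosperm and 510 against 878 in embryo. For expression in dme it gave 2251 against 3402. The median ratio as the expected ratio gave 1066 in full endosperm, 1032 against 3519 in dme, 615 in fie and 71 in met1. A minimum of 30 reads gave 30 in embryo. The fit with no replicate block called 1709 genes against 2959 in pure endosperm against embryo, 125 against 1379 in full endosperm, 1981 in dme, 2472 against 3751 in fie and 26 against 458 in met1. In met1 no filter on low counts gave 729 and omission of the LCM-titled libraries 691.

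Leaving out 1 library gave ranges of 78 to 388 genes for bias in pure endosperm, 433 to 2064 in full endosperm, 3 to 58 in embryo, 21 to 99 for pure endosperm minus embryo, 1919 to 3584 in dme, 815 to 1612 in fie and 97 to 343 in met1. The ranges were 1352 to 2311 for strain in endosperm and 452 to 1002 in embryo. For expression they were 1454 to 3013 in pure endosperm against embryo, 321 to 1833 in full endosperm, 1697 to 4073 in dme, 1481 to 4376 in fie and 146 to 877 in met1.

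The share of calls that were maternal fell with the median ratio from 97.5% to 77.7% in full endosperm, from 98.3% to 56.6% in dme, from 96.7% to 77.1% in fie and from 89.1% to 50.7% in met1. The share of expression calls that were higher went with library totals from 58.4% to 34.2% in pure endosperm against embryo, from 56.7% to 77% in full endosperm, from 52.1% to 77.3% in dme, from 53% to 73.2% in fie and from 61.8% to 81.9% in met1, where DESeq2 gave 47.9%. Library totals put the median of all genes at -0.41, 0.37, 0.94, 0.86 and 0.14, against 0.05, 0.11, 0.15, 0.21 and -0.07 with TMM.

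Sign changed for these log2 values. In DESeq2 the bias of LHP1 in pure endosperm was 0.013. With the median ratio the bias was -0.35 for SWN and -0.35 for EMF2 in full endosperm. In dme it was -1.13 for CLF, -1.19 for LHP1, -0.12 for MSI2, -0.39 for SDG2 and -0.19 for DME. In fie it was -0.21 for VRN2 and -0.71 for LHP1. VRN2 in pure endosperm against embryo was at 0.10 with no replicate block and 0.20 without the LCM-titled libraries. With library totals SWN in dme was at 0.0054, VRN2 in dme at 0.59 and VRN2 in fie at 0.20. Leaving out 1 library gave bias ranges in pure endosperm of -0.45 to 0.17 for SWN and -0.18 to 0.0093 for VRN2, in full endosperm of -0.27 to 0.51 for SWN and in embryo of -0.092 to 0.11 for VRN2. For pure endosperm minus embryo they were -0.12 to 0.94 for SWN, -0.22 to 0.018 for VRN2 and -0.27 to 0.62 for LHP1. LHP1 in fie ranged from -0.025 to 1.23 and CLF in met1 from -0.86 to 0.075. For strain SWN ranged from -0.31 to 0.078 in endosperm and from -0.84 to 0.085 in embryo. For expression in pure endosperm against embryo VRN2 ranged from -0.22 to 0.25 and RING1A from -0.031 to 3.69. In full endosperm FIS2 ranged from -1.30 to 0.36 and SWN from -0.049 to 0.093, and in dme VRN2 from -0.32 to 0.11 and RING1A from -0.14 to 0.76.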

Other observations

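Endosperm markers did not move together in the mutant libraries. MINI3, a WRKY factor of the early endosperm, had 270 reads in dme and 118 in fie and 0 in the other 9 libraries, at least 68.1-fold and 39.6-fold above a floor of 3 reads over the pure endosperm group. AGL62, which keeps the early endosperm from forming cells and is also counted above among the seed targets, was at 98.9 CPM in dme and 82.6 CPM in fie, with at most 2.07 CPM in a wild-type or met1 library. ZOU, a helix-loop-helix factor of the later endosperm, was at 13.1 CPM in dme and 11.9 CPM in fie, below 149 to 465 CPM in pure endosperm. ALE1, a protease of the later endosperm, was at 28.6 and 53.4 CPM, below 1332 to 3736 CPM in pure endosperm. EPR1, an extensin-type cell wall protein, was at 364 and 63.5 CPM, below 9790 to 195399 CPM. MINI3 and AGL62 were thus above all wild-type libraries in both mutants, and ZOU, ALE1 and EPR1 below all pure endosperm libraries. These genes were picked out of the marker list after their values were seen, with 1 library per mutant, and carry no test.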
